A study of Mus musculus with 9 samples.

Results

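Genes induced by type I interferon were described in mouse splenic T cells kept in 3 media. They were selected on their levels in these media, as 10 gene symbols, Isg15, Oasl2, Rtp4, Ifit3b, Ifi208, Slfn1, Ifit1, Ifit3, Mx1 and Usp18, of which 8 are among the 2889 genes of the sample table. Ifit3 and Mx1 were not analysed here. CD3+ T cells were taken from the spleens of wild-type C57BL/6 mice by negative selection, a method that captures cells of other types and keeps the rest. Cells of each of 3 mice were split over RPMI that had met no cells (unconditioned), medium conditioned by adipocytes and medium conditioned by stromal cells, with 1 library per mouse and medium after 4 h, 9 in all. The labels name no interferon or other added agent, and do not say from which adipocytes or stromal cells the media came.

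Type I interferons bind the receptor IFNAR, whose kinases JAK1 and TYK2 phosphorylate transcription factors of the STAT family, STAT2 among them. These join IRF9 in a complex that binds the interferon-stimulated response element, a repeat of GAAA blocks in the promoters of antiviral genes. Interferon gamma uses another receptor and STAT dimers without IRF9, which bind the gamma-activated sequence, and many genes respond to both. In T cells such genes limit viral replication and also shape survival and proliferation.

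The level of a gene is given in normalized counts, read counts divided by the authors' size factor for each library. The table holds only genes that the authors had listed as changed against unconditioned medium in 1 or both conditioned media. Isg15, Ifit1, Ifit3b, Ifi208 and Slfn1 are in the authors' deposited table for adipocyte medium. Isg15, Oasl2, Rtp4, Ifit1 and Usp18 are in that for stromal medium. These same libraries thus chose the genes, and differences from unconditioned medium are given as a description. The recovered reads on listed genes were 6522742 to 13758643 per library, and each of the 8 genes had between 43 and 32753 reads in every library. Libraries of 1 medium differed by more than sampling noise (chi-square per degree of freedom 10.2 to 96.7). The CD3 chain gene Cd3e, which defines T cells, was at 15178 to 36835 normalized counts over the 9 libraries.

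The promoters are shown first, because Isg15, higher in adipocyte medium, shares the element with Ifit1, Ifit3b and Ifi208, which were lower there. RefSeq promoter windows (build GRCm38.p6, from 250 bases before the start to 50 after it) were matched for Isg15, Oasl2, Ifit3b, Ifi208, Slfn1 and Ifit1. No window was available for Usp18 and Rtp4, which were also higher in adipocyte medium. The core of the interferon-stimulated response element, a GAAA block followed after any 2 bases by another, was searched on both strands. It was found in 4 of these 6 windows (66.7%), against 3.44% of all 32851 windows. The stretches below run 5′ to 3′ along the gene's strand, with each match, or its reverse complement, in capitals.
Isg15 (chr4:156200845-156200926, minus strand): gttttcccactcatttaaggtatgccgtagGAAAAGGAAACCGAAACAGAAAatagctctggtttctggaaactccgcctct
Ifit1 (chr19:34640755-34640843, plus strand): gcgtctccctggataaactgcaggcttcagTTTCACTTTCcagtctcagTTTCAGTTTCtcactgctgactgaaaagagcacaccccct
Ifit3b (chr19:34607739-34607842, plus strand): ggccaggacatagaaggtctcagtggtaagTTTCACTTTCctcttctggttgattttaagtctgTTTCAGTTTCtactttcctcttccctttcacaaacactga
Ifi208 (chr1:173673577-173673646, plus strand): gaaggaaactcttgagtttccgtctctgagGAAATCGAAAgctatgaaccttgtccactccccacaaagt

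Isg15 held 3 matches that overlap each other, from 78 to 57 bases before the start. Ifit1 and Ifit3b each held 2 on the opposite strand, with the same letters in both genes, TTTCACTTTC and TTTCAGTTTC. The stretch printed for Ifit3b is identical to that of its neighbour Ifit3 in all 104 bases. Ifi208 held 1 match. These letters are not in the windows of Oasl2 and Slfn1. The gamma-activated core TTCNNNGAA was in 0 of the 6 windows, against 8.30% of all windows. The map of matches by distance from the start shows the same positions. Unlike those of the other genes, the end of the Ifit3b window was not found in its GENCODE M21 transcripts. Its distances from the start are therefore less certain. A match is a run of letters and was not tested for binding.

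**Figure D1:**
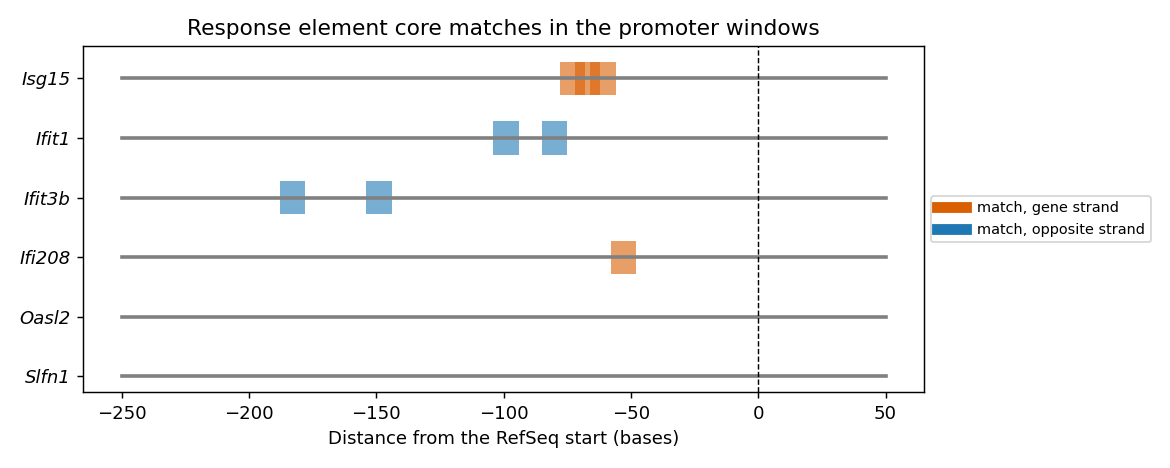
Matches to the response element core (2 GAAA blocks with 2 bases between them) in the RefSeq promoter windows of 6 interferon-induced genes, by distance from the start in bases; grey lines are the windows, orange blocks are matches on the gene's strand and blue blocks on the opposite strand. Isg15, Ifit1, Ifit3b and Ifi208 hold matches, and Oasl2 and Slfn1 hold 0.

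In stromal medium 7 of the 8 genes were higher than in unconditioned medium and Ifi208 was lower, with no overlap between the libraries of the 2 media for any of the 8. In adipocyte medium the genes split. Isg15, Usp18, Oasl2 and Rtp4 were higher, and Ifit1, Ifit3b, Ifi208 and Slfn1 were lower, again without overlap. All 8 were past a limma adjusted p of 0.05 in both comparisons, where 97.2% and 57.7% of the 2868 tested genes were. Since these comparisons selected the genes, nothing is read from those counts or from the lack of overlap. The share of all tested genes without overlap was not computed. The plot of levels by mouse shows both patterns.

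**Figure D2:**
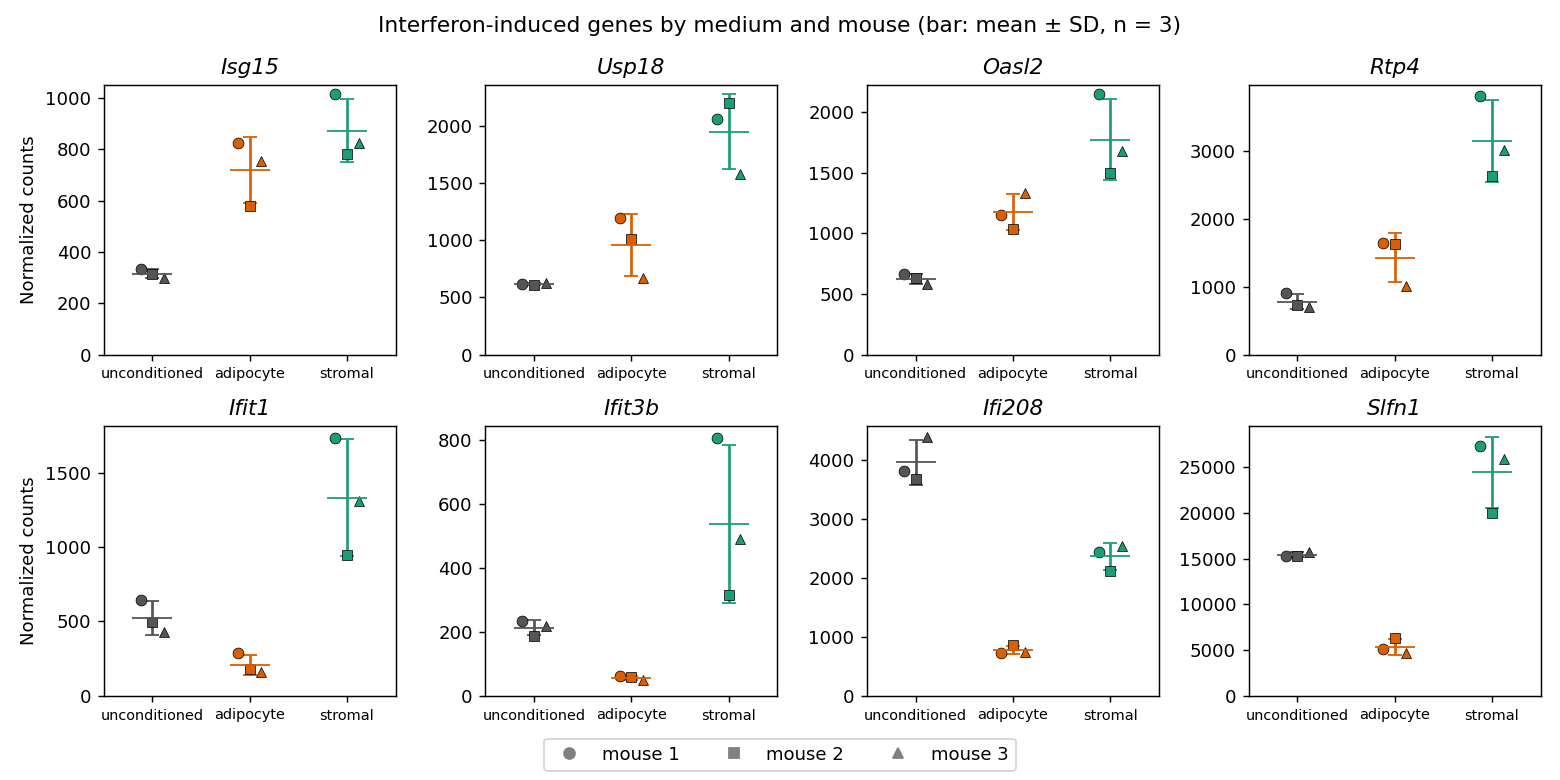
Normalized counts (vertical axes, from 0) of 8 interferon-induced genes in unconditioned, adipocyte and stromal medium; symbols are the 3 mice and bars the mean ± SD. The upper 4 genes are higher in adipocyte than in unconditioned medium and the lower 4 are lower there, while 7 of the 8, all but Ifi208, are highest in stromal medium, with 1 overlap between stromal and adipocyte libraries, in Isg15.

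Isg15 (ENSMUSG00000035692) encodes a ubiquitin-like modifier that is attached to other proteins. It was at 336, 313 and 300 normalized counts in unconditioned medium in mice 1, 2 and 3. It was at 827, 580 and 753 in adipocyte medium and at 1016, 782 and 824 in stromal medium. Every library of either conditioned medium was above every unconditioned one, and the 2 conditioned media overlapped. On the log2(value + 1) scale Isg15 differed from unconditioned medium by 1.17 (SE 0.15) in adipocyte and by 1.46 (SE 0.15) in stromal medium.

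Usp18 (ENSMUSG00000030107) encodes the protease that removes ISG15 from proteins and also restrains signalling at the interferon receptor. Its unconditioned libraries lay close together, at 618, 612 and 623. In adipocyte medium it was at 1198, 1007 and 667 and in stromal medium at 2063, 2201 and 1581. Mouse 3 in adipocyte medium was only just above the unconditioned libraries. The log2 difference was 0.59 (SE 0.19) in adipocyte medium and 1.64 (SE 0.19) in stromal medium. Without mouse 1 the adipocyte difference was 0.41 with a limma adjusted p of 0.103, and without mouse 2 it was 0.53 with 0.0793, so this call depends on the mice included.

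Oasl2 (ENSMUSG00000029561), from the oligoadenylate synthetase family of RNA sensors, was at 663, 631 and 584 in unconditioned medium. It was at 1155, 1040 and 1331 in adipocyte medium and at 2148, 1499 and 1679 in stromal medium. Its 3 groups were fully separate, with adipocyte medium in between. Oasl2 differed from unconditioned medium by 0.90 (SE 0.14) and 1.49 (SE 0.14) on the log2 scale in adipocyte and stromal medium.

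Rtp4 (ENSMUSG00000033355), an interferon-induced member of the receptor transporter family, had the same order. It was at 910, 729 and 706 in unconditioned, at 1642, 1630 and 1011 in adipocyte and at 3821, 2633 and 3015 in stromal medium. The log2 differences were 0.84 (SE 0.19) in adipocyte and 2.00 (SE 0.19) in stromal medium, the latter being the largest rise of the 8 genes.

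Ifit1 (ENSMUSG00000034459) encodes a tetratricopeptide repeat protein that binds viral RNA. It was at 647, 495 and 426 in unconditioned, at 286, 182 and 162 in adipocyte and at 1734, 950 and 1311 in stromal medium. It was thus below the unconditioned level in 1 conditioned medium and above it in the other, in each of the 3 mice. The log2 differences were -1.33 (SE 0.25) and 1.33 (SE 0.25).

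Ifit3b (ENSMUSG00000062488), a copy of Ifit3 in the same gene cluster on chromosome 19, followed Ifit1. It was at 233, 188 and 220 in unconditioned, at 61.8, 57.6 and 49.8 in adipocyte and at 806, 317 and 490 in stromal medium. The stromal libraries spread widely, with mouse 1 well above the other 2. The log2 differences were -1.90 (SE 0.28) and 1.23 (SE 0.28). Of the 50-base words in its GENCODE M21 transcripts 45.0% also occur in another gene, chiefly Ifit3, so reads of the 2 copies could be split in counting and the value is uncertain. For Ifi208 that share was 20.9%, chiefly with Ifi213, and for Rtp4 11.6%, with the overlapping gene model Gm45338. For the other 5 genes it was 0.138% to 7.13%. Usp18 also shares exon positions with Gm44148 on the opposite strand, and strand is not kept in these libraries.

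Ifi208 (ENSMUSG00000066677), from the IFI200 family of nucleic acid binding proteins, was the only 1 of the 8 that was lower in both conditioned media. It was at 3826, 3682 and 4397 in unconditioned, at 733, 859 and 739 in adipocyte and at 2437, 2121 and 2550 in stromal medium. The 3 groups were fully separate. The log2 differences were -2.35 (SE 0.10) and -0.74 (SE 0.10).

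Slfn1 (ENSMUSG00000078763), a Schlafen family gene linked to restraint of T cell growth, had the highest level per length of the 8, at 8283 normalized counts per kb of exon in unconditioned medium against 98.2 to 755 for the others. Its normalized counts were 15320, 15266 and 15730 in unconditioned, 5087, 6290 and 4656 in adipocyte and 27338, 20043 and 25947 in stromal medium. The unconditioned libraries differed little, and both conditioned media stood clear of them on opposite sides. The log2 differences were -1.54 (SE 0.13) and 0.65 (SE 0.13).

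The sizes of these differences depend on the scaling of the libraries. Over all 2868 tested genes the median difference from unconditioned medium was -1.03 in adipocyte and -0.17 in stromal medium on the authors' scale. Rescaling by a median of ratios over the listed genes adds 0.93 in adipocyte and 0.36 in stromal medium, and somewhat less for genes of low level because of the added 1. The listed genes are only those called changed, and 63.4% of those tested were lower in adipocyte medium. Centring on their median would also remove a true imbalance, since the method takes most genes as unchanged. The rescaling is therefore a check on dependence and not a better scale. None of the 8 genes changed direction against unconditioned medium with the rescaling. After that rescaling Isg15, Oasl2, Rtp4 and Usp18 were at 2.09, 1.83, 1.77 and 1.51 in adipocyte medium. Ifi208, Ifit3b and Slfn1 remained lower there, at -1.43, -0.98 and -0.62, and Ifit1 was at -0.41 and no longer past the threshold (limma adjusted p = 0.163). In stromal medium no gene of the 8 changed direction or side of the threshold, with Ifi208 at -0.39 and the other 7 from 1.01 to 2.36. Of 2870 genes tested after rescaling, 2125 were past the threshold in adipocyte and 1690 in stromal medium, and 2263 between these media. These are calls in either direction. Shares by direction were not computed after rescaling, so percentages given beside counts are for the authors' scale only. The plot of differences gives both scalings side by side.

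**Figure D3:**
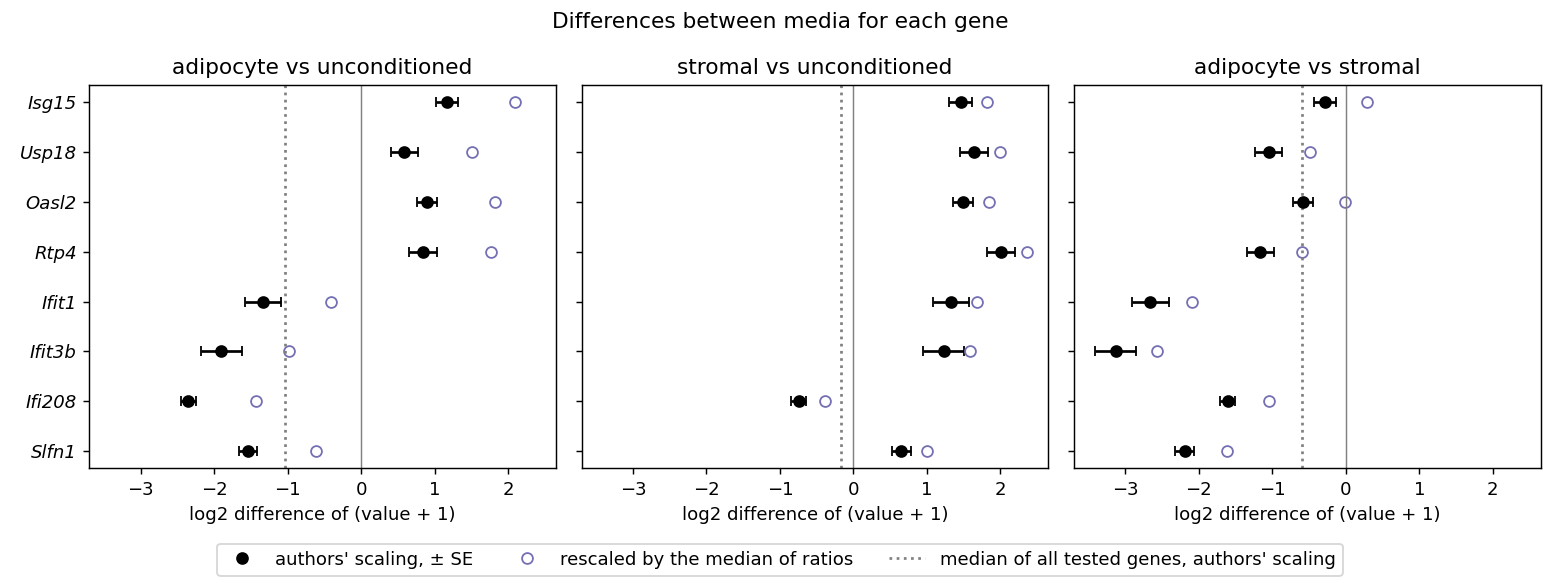
Differences between media for 8 interferon-induced genes on the log2(value + 1) scale; filled points with bars are the authors' scaling ± SE, open points the rescaling by the median of ratios, and dotted lines the median of all tested genes on the authors' scale. Isg15 changes sign between the scalings in adipocyte against stromal medium, and Oasl2 moves to -0.016 there.

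A ratio of 2 genes within a library does not depend on the scaling. Isg15 over Ifit1 was 0.519, 0.633 and 0.703 in the unconditioned libraries, 0.586, 0.824 and 0.628 in the stromal ones and 2.89, 3.19 and 4.64 in the adipocyte ones. In stromal medium the 2 genes thus kept nearly the unconditioned ratio, while every adipocyte library was well above it. Isg15 over Ifit3b went likewise from 1.49 ± 0.16 (mean ± SD, n = 3) in unconditioned to 1.80 ± 0.61 in stromal and 12.9 ± 2.57 in adipocyte medium. Isg15 over Oasl2 was 0.505 ± 0.009 in unconditioned, 0.495 ± 0.025 in stromal and 0.613 ± 0.089 in adipocyte medium. Every adipocyte library (0.557 to 0.716) was above the other 6 (0.473 to 0.522), a smaller gap than for Ifit1. Isg15 over Usp18 was 0.512 ± 0.031, 0.456 ± 0.089 and 0.798 ± 0.292 in unconditioned, stromal and adipocyte medium, with every adipocyte library again above the rest. Isg15 over Rtp4 was 0.408 ± 0.034, 0.279 ± 0.016 and 0.535 ± 0.197, and its adipocyte libraries overlapped the unconditioned ones. Against Ifi208 and Slfn1 the ratio was above the unconditioned one in both conditioned media, with stromal medium in between. It was 0.080 ± 0.011, 0.370 ± 0.047 and 0.941 ± 0.236 for Ifi208 in unconditioned, stromal and adipocyte medium. With 3 libraries against 3, an exact permutation test of such a ratio cannot give a two-sided p below 0.1, and no such test was made.

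**Figure D4:**
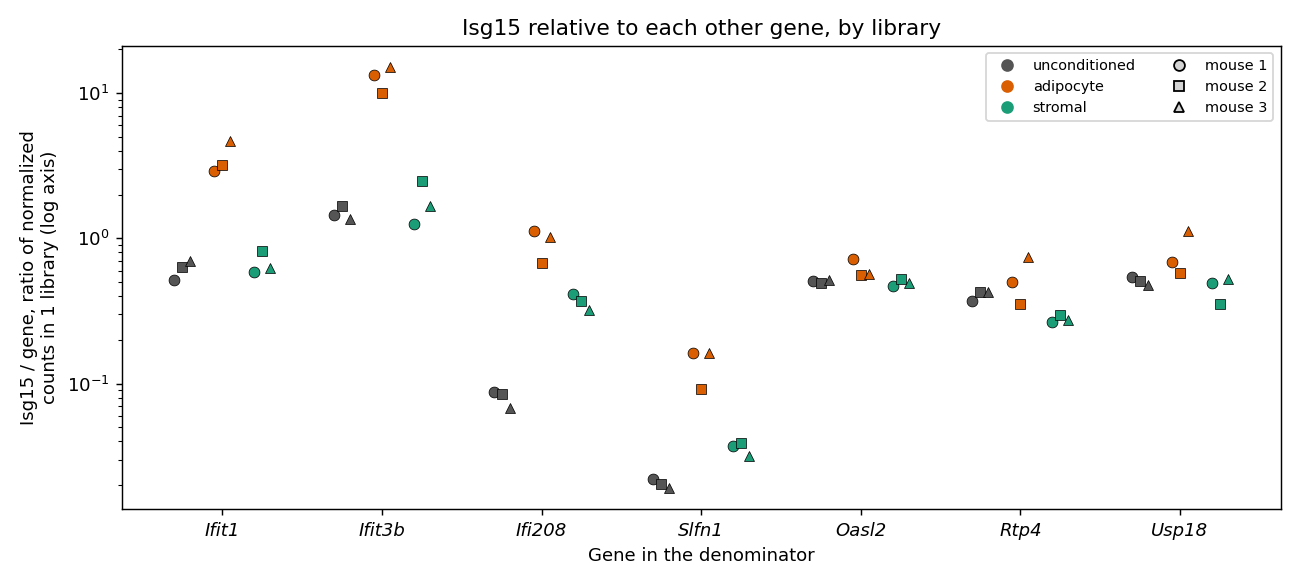
Isg15 divided by each of the 7 other genes within each library (log axis), by medium (colour) and mouse (symbol). The adipocyte libraries stand above the others for Ifit1, Ifit3b, Ifi208 and Slfn1 and, with narrower gaps, for Oasl2 and Usp18, and they overlap the unconditioned libraries for Rtp4.

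Adipocyte against stromal medium is a comparison for which the authors' deposited tables hold no list. It still uses libraries that chose the genes, so its p-values describe the differences and are no independent test. On the authors' scale 7 of the 8 genes were lower in adipocyte medium by limma and 0 were higher. Of all tested genes 57.2% were lower there, 33.8% higher and 91% past the threshold in either direction, so that being past it sets the 8 apart little. The falls were largest for Ifit3b (log2 difference -3.13, SE 0.28), Ifit1 (-2.66, SE 0.25) and Slfn1 (-2.19, SE 0.13), against a median over all tested genes of -0.60. Each of the 8 genes, Isg15 included, was lower in adipocyte medium in 3 of 3 mice on this scale. The share of all tested genes that were so was not computed. Ifi208, Rtp4, Usp18 and Oasl2 were at -1.61, -1.16, -1.05 and -0.59. Isg15 was at -0.29 (SE 0.15, limma adjusted p = 0.0877). A block for the mouse moved this to an adjusted p of 0.0487, and leaving out adipocyte mouse 1 to -0.39 with 0.0371. After rescaling, 6 of the 8 were lower, with Oasl2 at -0.016 (adjusted p = 0.917) and Isg15 at 0.28 (adjusted p = 0.116).

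Within stromal medium the libraries kept an order for most of the genes. Mouse 1 had the highest value in 6 of the 8 and mouse 2 the lowest in 7. In adipocyte medium mouse 3 was lowest in 5 of the 8. What sets these libraries apart was not tested.

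Transcript levels of genes for interferon signalling differed between the media. Whether their products set the levels of the interferon-induced genes here was not tested. Stat2 rose by 1.30 in stromal medium and was at 0.18 in adipocyte medium (limma adjusted p = 0.284). Without adipocyte mouse 3 Stat2 was at 0.43 there (adjusted p = 9.65e-04). Irf9, for its DNA-binding partner, rose in both, by 0.85 and 0.46. The receptor kinase gene Tyk2 fell in both, to -0.70 in stromal and -1.56 in adipocyte medium. Rescaling left the directions of these 3 genes in stromal medium as they were, and put Stat2 at 1.11 in adipocyte medium, past the threshold (adjusted p = 6.33e-05). In the direct comparison Stat2 was lower in adipocyte than in stromal medium under both scalings, at -1.12 and -0.55.

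Of 19 receptors, kinases and factors of interferon signalling 7 were in the table. In adipocyte medium 4 rose (33.8% of all tested genes did) and 1 fell, or 6 and 1 after rescaling, and in stromal medium 5 rose (21.1% of all) and 1 fell under both scalings. Irf1, a factor that also follows interferon gamma, rose by 1.47 and 1.28, and Irf8, which is also a marker of B cells and dendritic cells, by 1.00 and 1.36. Ifngr2, a chain of the interferon gamma receptor, rose by 1.05 in adipocyte medium and was at -0.16 in stromal medium (limma adjusted p = 0.221; -0.27 with 0.0226 without mouse 2; 0.20 after rescaling). Of 21 interferon ligand genes on the list, the type I ligands included, Ifng was the only 1 in the table. This T cell cytokine went from 116 ± 17.7 to 354 ± 30.6 in stromal and 1809 ± 273 in adipocyte medium. Ifng was thus highest where Ifit1 and Slfn1 were lowest.

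Feedback inhibitors were in the table for 5 of 13 symbols, Usp18 among them. In adipocyte medium 3 rose (33.8% of all tested genes did), or 4 after rescaling, and in stromal medium 4 rose (21.1% of all) under both scalings. Socs1, which blocks JAK kinases, rose by 1.97 in stromal medium and was at 0.16 in adipocyte medium (limma adjusted p = 0.167). It was at 0.28 there without adipocyte mouse 3 (adjusted p = 0.0165) and at 1.09 after rescaling (adjusted p = 2.52e-06). Socs3 and Cish, feedback genes of cytokine signalling, rose by 1.17 and 1.48 in adipocyte and by 0.88 and 0.76 in stromal medium. Pias3, for an inhibitor of STAT binding to DNA, fell by 0.92 in adipocyte medium, and was at 0.0058 after rescaling.

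Of 9 symbols for ISG15 and the enzymes that attach and remove it 6 were in the table, Isg15 and Usp18 included. On the authors' scale 4 rose and 1 fell in adipocyte medium and 3 rose and 1 fell in stromal medium, where 33.8% and 21.1% of all tested genes rose. After rescaling 5 were higher and 0 lower in each medium. Ube2l6, for the conjugating enzyme, rose by 1.70 in stromal medium and was at 0.01 in adipocyte medium (limma adjusted p = 0.95). After rescaling Ube2l6 was at 0.93 in adipocyte medium, past the threshold (limma adjusted p = 0.00109). Uba7, for the activating enzyme, was at -0.80 in adipocyte and -0.27 in stromal medium, and at 0.13 and 0.091 after rescaling. Usp16 and the ligase gene Arih1 rose by 0.85 and 0.95 in adipocyte medium and were at 0.14 and 0.04 in stromal medium (adjusted p = 0.141 and 0.687). After rescaling these 2 genes were at 1.78 and 1.88 in adipocyte medium. In stromal medium they were then at 0.50 and 0.40, past the threshold (limma adjusted p = 6.05e-04 and 0.0050).

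Relatives of the 8 genes are set beside the 63.4% of all tested genes that fell in adipocyte medium on the authors' scale, with a median of -1.03. Ifit1bl1, an IFIT family gene beside Ifit1, was at -2.14 in adipocyte medium (-1.21 after rescaling) and at 0.32 in stromal medium (limma adjusted p = 0.278; 0.68 after rescaling, adjusted p = 0.0279). The IFI200 genes Ifi206, Ifi209 and Ifi214 fell with Ifi208 in adipocyte medium, by 1.02, 0.96 and 1.31 on the log2 scale, the first 2 close to that median. They were at -0.30, -0.28 and -0.52 in stromal medium. There Ifi206 lost its call without mouse 1 (adjusted p = 0.0651) or mouse 2 (0.0526), and Ifi209 without any 1 of the 3 mice (0.0503 to 0.178). After rescaling Ifi214 alone of these 3 was past the threshold in adipocyte medium, at -0.38, and 0 of the 3 in stromal medium, where Ifi206 and Ifi209 turned to 0.059 and 0.072. In the OAS family Oas1c was at -1.58 (-0.66 after rescaling) in adipocyte medium, opposite to Oasl2. Slfn1 and Rtp4 were the only genes of the Schlafen and receptor transporter families in the table.

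Of 114 genes on a wider list of type I interferon induced genes, 36 were in the table and all were tested. In adipocyte medium 9 rose (33.8% of all tested genes did) and 22 fell (63.4% of all), with a list median of -0.85 beside -1.03 for all genes. In stromal medium 20 rose (21.1% of all) and 12 fell (36.6% of all), with a median of 0.72 beside -0.17. These 36 overlap the other lists described here, by Stat2, Irf9, Ube2l6, Uba7, Gbp7 and Zbp1 among others. They also include the 8 genes selected on their levels. The other 28 held 5 risers and 18 fallers with a median of -0.85 in adipocyte medium, and 13 and 11 with a median of 0.36 in stromal medium. For all 36 the counts after rescaling were 15 higher and 9 lower in adipocyte and 23 higher and 4 lower in stromal medium. Under the same rescaling 2125 of 2870 genes were past the threshold in either direction in adipocyte medium and 1690 in stromal medium. The authors' deposited tables had already listed 23 and 16 of the 36 for adipocyte and stromal medium. The largest rises were those of Gm4951 and Cxcl10 in both media, at 2.03 and 1.53 in adipocyte and 3.22 and 2.45 in stromal medium, Cxcl10 being a chemokine gene that also follows interferon gamma. Rsad2, for the antiviral enzyme viperin, came next in adipocyte medium at 1.49. Ly6c1, a surface protein gene of memory-type T cells and other cells, was second lowest in adipocyte medium at -2.26. The lowest in stromal medium were Ddx60, Phf11b and Trim34a at -1.59, -1.02 and -0.92. In adipocyte medium Ddx60 and Phf11b were both at -0.67, and rescaling turned them to 0.26 each.

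**Figure D5:**
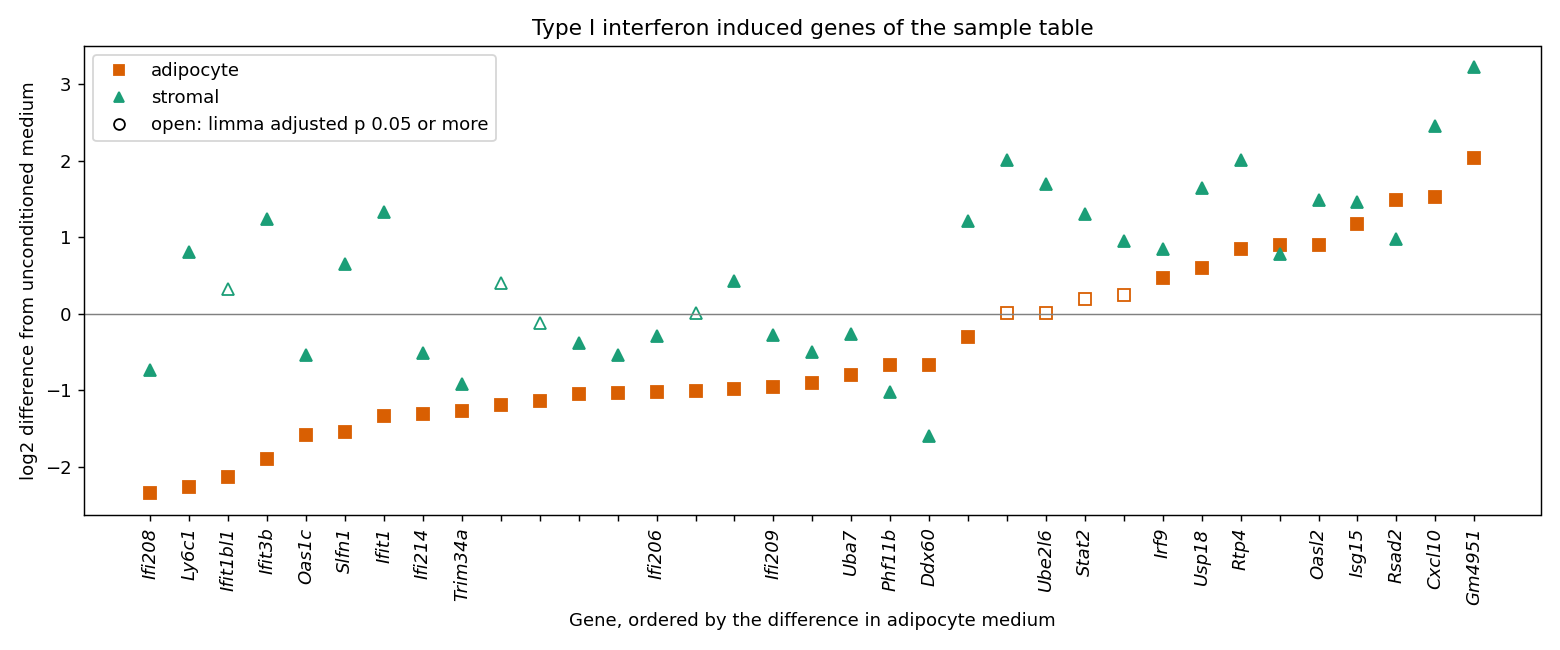
Log2 differences from unconditioned medium, on the authors' scale, of 35 of the 36 type I interferon induced genes in the table, ordered by adipocyte medium (squares; stromal medium, triangles; both share the unconditioned libraries), with names for the genes described in the text. Open symbols did not pass a limma adjusted p of 0.05; rescaling shifts squares up by about 0.93 and triangles by about 0.36 (for Gm4951, of low level, from 2.03 to 2.89 and from 3.22 to 3.52), which changes the side of 0 for several genes, Ddx60 and Phf11b among them.

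In adipocyte against stromal medium 31 of the 36 were lower (57.2% of all tested genes were) and 3 were higher (33.8% of all), with a median of -1.02 beside -0.60 over all genes. Of the 28 without the 8 genes 24 were lower and 3 higher, with a median of -0.85. After rescaling 18 of the 36 were lower and 5 higher, where 2263 of 2870 genes were past the threshold in either direction. The 3 higher genes on the authors' scale were Ddx60, Rsad2 and Phf11b at 0.93, 0.51 and 0.35. Leaving out adipocyte mouse 1, or mouse 3 in every medium, left 1 of 3. The response element core was in the windows of 19 of the 28 list genes that had one (67.9%), against 4.59% of the genes of the whole table. Those 19 genes held 3 risers and 14 fallers in adipocyte medium and 7 and 8 in stromal medium. Of all tested genes 33.8% rose and 63.4% fell in adipocyte medium, and 21.1% and 36.6% in stromal medium. The 9 genes with a window and no match held 3 and 5 in adipocyte medium and 7 and 2 in stromal medium. The 8 list genes without a window held 3 and 3, and 6 and 2. These counts are on the authors' scale and were not computed after rescaling. Differences between these sets were not tested.

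Guanylate binding proteins, large GTPases that respond mainly to interferon gamma, were in the table for 10 of 11 symbols. All 10 rose in stromal medium (21.1% of all tested genes did), by 0.99 to 4.84, and the authors' deposited table for that medium had listed each of them. In adipocyte medium 3 rose (33.8% of all), 0 fell (63.4% of all) and 7 were not past the threshold, with a range of -0.28 to 1.33, and after rescaling all 10 were higher there. No guanylate binding protein gene was past the threshold downward in adipocyte medium under either scaling. Of the 8 interferon-induced genes 4 rose and 4 fell there on the authors' scale. The authors' deposited table for adipocyte medium held 0 of the 10, while Ifi208, Ifit3b and Slfn1 were listed for that medium alone. The choice of genes thus bears on any contrast between these groups, and the difference was not tested. Of 25 nucleic acid sensors and adaptors 5 were in the table, and all 5 fell in adipocyte medium, where 63.4% of all tested genes fell. Their median there was -1.26 beside -1.03 for all genes, and 4 were lower and 1 higher after rescaling. In stromal medium 1 rose and 1 fell, or 1 and 0 after rescaling.

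The authors' deposited cluster numbers place Oasl2, Rtp4, Ifit3b, Ifit1 and Usp18 in cluster 4, Ifi208 and Slfn1 in cluster 2 and Isg15 in cluster 1. Likeness was measured as Pearson's r of log2(value + 1) over the 9 libraries, which share their mice and media. Among the 8 genes Ifit3b was closest to Ifit1 and Slfn1 (r = 0.98 for each), and Isg15 to Oasl2 (r = 0.97), while Isg15 and Ifit1 had an r of 0.22. Over all other named genes in the table, Rtp4 was closest to Gbp6, Sft2d2 and the GTPase gene Igtp (r = 0.994, 0.994 and 0.990), and Isg15 to Neto2, Fzd5 and the integrin gene Itgb3 (0.980, 0.974 and 0.968). Slfn1 was closest to the RNA polymerase subunit gene Polr2e, Entpd7 and Prkra, which encodes an activator of the RNA sensor kinase PKR (0.998, 0.998 and 0.997). Ifi208 was closest to Elp2, Fam78a and Echs1 (0.998, 0.997 and 0.996). Ifit3b was closest to Tlr6, Glb1 and Galk1 (0.988, 0.985 and 0.980), and Ifit1 to Pros1, Gtse1 and Psat1 (0.975, 0.975 and 0.970). Usp18 was closest to the cell cycle genes E2f1 and Pole2 (0.994 and 0.973), and Oasl2 to Cmss1, Pim2 and Tnfrsf23 (0.981, 0.968 and 0.966).

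Transcripts of other cells were present and moved with the media. In bulk samples fewer cells of a type and less RNA per cell cannot be told apart. Only genes listed as changed are available, so markers without a listed change are missing from the sums below. In adipocyte medium 5 of 5 T cell and 9 of 9 B cell markers fell, where 63.4% of all tested genes fell and 33.8% rose. Of the myeloid, neutrophil, plasmacytoid and natural killer markers, 10, 6, 4 and 1 fell there, and 1 of each rose. The risers were Xcr1, Ngp, Irf8 and Klre1. After rescaling 4 T cell and 5 B cell markers were lower and 0 higher. Of the myeloid, neutrophil, plasmacytoid and natural killer markers 6, 4, 4 and 0 were then lower, and 2, 1, 1 and 1 higher. The sums are on the authors' scale. The 9 B cell markers in the table, of 22, summed to 10529 to 13593 normalized counts in unconditioned, 3893 to 5418 in adipocyte and 11016 to 16633 in stromal medium. The 12 myeloid markers, of 28, summed to 7364 to 11455, 2687 to 2999 and 7983 to 12976 in the same order, and the 7 neutrophil markers, of 13, to 1903 to 2794, 311 to 1027 and 1861 to 3315. The T cell markers fell as well in adipocyte medium, the 5 in the table, of 20, summing to 103410 to 115370, 42462 to 44070 and 88751 to 91890. The 5 markers of plasmacytoid dendritic cells, the main makers of type I interferon, of 15 listed, summed to 1672 to 1796, 2242 to 2533 and 3078 to 4277. Irf8 made up most of that sum, and Siglech, a defining marker, was at 74.5 ± 14.7, 18.1 ± 10.2 and 67.5 ± 10.9 (mean ± SD, n = 3). The 3 natural killer markers, of 12, summed to 4755 to 5314, 2552 to 4739 and 3673 to 4266. Lpl was the only adipocyte marker in the table, of 10, at 28.6 to 105, 0 to 12.7 and 156 to 193, and 0 of 11 stromal markers were. No B cell, T cell, neutrophil, natural killer or plasmacytoid marker in the table was at 0 in any library, and 1 of the 12 myeloid markers was at 0 in mouse 3 in adipocyte and in stromal medium. The part of these cells in the levels of the interferon-induced genes was not tested.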

How the data were processed

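RNA-seq of 9 libraries (3 mice in 3 media) was analysed. Per the submitters' processing notes, FastQC, Trimmomatic, featureCounts and DESeq2 were used, without versions, with the builds GRCm39, GRCh38 and hg38. For the aligner, gene annotation and counting options nothing is given in the sources used here. Per the labels, cDNA was made with SMART-seq v4 and libraries with Nextera XT, which does not keep strand. The authors' deposited sample table holds a normalized signal per gene: 100% of values are whole multiples of 1 step per library (within 0.001 reads), so whole reads were recovered, 6522742 to 13758643 per library over the listed genes; whole library depth is unknown. The deposited tables of changed genes hold a log2 fold change, a Wald score and a p-value that tests a change beyond 1.5-fold; the sample table also holds the authors' cluster number.

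Values were analysed as log2(value + 1), which understates changes of low genes, for 2868 genes with a mean of at least 1, by limma-trend (limma 3.58.1, R 4.3.3) with 9 libraries in 1 fit, the medium as factor, two-sided p-values and Benjamini-Hochberg adjustment over all tested genes with a threshold of 0.05. Alternatives were pseudocounts of 0.5 and 10, no filter, a mean of at least 10, the mouse as a block, a median-of-ratios rescaling, edgeR 4.0.16 on the recovered reads, and leaving out each library or mouse. The library names in the labels give the mouse of each sample, so samples are paired by mouse; deviations from the group means correlated by -0.12 to 0.26 within a mouse. Both models were tested on simulated data. Matches and exon overlaps used RefSeq GRCm38.p6 and GENCODE M21, for sequence and names only. The genes and lists were chosen with earlier results of these data known, and the ratios within libraries after seeing the values. Named genes were the 8, their families, the signalling, feedback and ISG15 enzyme lists, the 3 highest and 3 lowest of the wider list in each comparison and the 3 genes with the closest profile to each of the 8. Some genes that this rule names are not reported here, though list counts include them.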

Additional observations from a re-analysis of the deposited data

How the results depend on the processing

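The differences of the 8 genes in the 3 comparisons, 24 in all, kept their direction and side of the threshold under both other pseudocounts, both other filters and edgeR on recovered reads. Over all 2868 genes edgeR called 2784 for adipocyte medium (limma 2787) and 1685 for stromal medium (limma 1655), and 2611 between these media (limma 2609). With the mouse as a replicate block Isg15 in adipocyte against stromal medium was at -0.29 and passed the threshold (adjusted p = 0.0487), and no other call of the 24 changed. Rescaling by the median of ratios left Oasl2 at -0.016 in adipocyte against stromal and Ifit1 at -0.41 in adipocyte against unconditioned medium, both no longer past the threshold. For the wider list rescaling put 15 genes up and 9 down in adipocyte medium, where the list median became 0.073 in place of -0.85. It gave 4 lower with a median of 1.07 in stromal medium, and 5 higher and 18 lower with a median of -0.45 in adipocyte against stromal medium. Among the other named genes, differences past the threshold on the authors' scale whose sign rescaling turned were, in adipocyte against stromal medium, Irf8 at 0.21, Irf9 at 0.18, Uba7 at 0.039 and Trim34a at 0.21; in adipocyte medium, Pias3 at 0.0058, Uba7 at 0.13, Ddx60 at 0.26 and Phf11b at 0.26; and in stromal medium, Uba7 at 0.091, Ifi206 at 0.059 and Ifi209 at 0.072. Of differences not past it, Ifngr2 and Pias3 in stromal medium turned to 0.20 and 0.13, and Isg15 in adipocyte against stromal medium to 0.28. Leaving out 1 library or mouse gave Isg15 -0.39 to -0.14 in adipocyte against stromal medium, Usp18 0.41 to 0.84 in adipocyte medium, a list median of -0.88 to -0.80 in adipocyte medium and 1 to 3 list genes higher in adipocyte against stromal medium. Ifit3b, with 43 to 64 reads per adipocyte library, has the least depth of the 8.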
